A study of Mus musculus with 45 samples.

Results

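Islets of Langerhans from NZO/HlLtJ mice on the high-fat diet were compared between males and females, over autosomal genes only. The libraries were chosen by their titles, which name the strain, the 44% fat diet and the sex: 3 libraries of males and 4 of females, 7 of the 45 in the series. Genes on chromosomes 1 to 19 made up 22073 of the 22904 genes in the count table, and 17890 of them had enough counts to be tested. The series measured polyadenylated RNA of islets from 3 inbred strains, C57BL/6J, CAST/EiJ and NZO/HlLtJ, on 2 diets in both sexes. All animals were labelled wild type with no other treatment. The diets, high in fat and sugar with 44% fat and fiber or a control with 10% fat and fiber, began at 6 weeks of age, and tissue was taken at 15 weeks. Beside the high-fat groups, 3 males and 4 females of NZO/HlLtJ on the control diet entered the fit, and 8 high-fat libraries each of C57BL/6J and CAST/EiJ gave the same contrast in other strains. The labels do not say from which animal, or how many, a library came, and each p-value covers only the spread among libraries, which may be technical.

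Islets are small clusters of endocrine cells within the exocrine pancreas. Their beta cells take up glucose, metabolise it, and release insulin in proportion to it, and mature beta cells keep a set of otherwise common genes silent. NZO/HlLtJ is a polygenic strain prone to obesity in which males become diabetic more often than females, and an islet preparation from any mouse also carries acinar, duct, stromal, vascular and immune cells in varying number.

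Library totals of the 7 libraries ran from 71452639 to 90772245 expected counts, within the range of 57203768 to 109950216 over the series. Transcripts of the Y-linked gene Ddx3y lay between 44.4 and 46.8 CPM (this unit scales each count to a common library total, here adjusted by the trimmed mean of M values) in the males and at 0 in the females. High-fat male 3 stood apart. Its level of Xist, the X-inactivation RNA of female cells, was 15.3 CPM against 0.351 and 0.344 CPM in high-fat males 1 and 2 and from 531 to 862 CPM in the females, and its share of acinar transcripts was the highest of the 7. The sample identifiers fall into 3 runs of numbers, called the number range here: high-fat male 1 and females 1 and 2 are in the first, males 2 and 3 in the second and females 3 and 4 in the third. The number range was a term of the fits unless stated, since the second holds no high-fat female and the third no high-fat male. Over 12412 genes, the median absolute log2 difference between 2 libraries was 0.14 to 0.26 among high-fat males, 0.16 to 0.23 among high-fat females and 0.21 to 0.51 between a male and a female.

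High-fat males and females differed at 2559 autosomal genes, 14.3% of those tested (edgeR quasi-likelihood test, Benjamini-Hochberg adjusted p of at most 0.05, called here). Of these, 1810 genes (10.1%) were higher in males and 749 (4.19%) lower, the background for each count of list members given after this, and 1736 differed at least 2-fold, 1479 of them upward. The median log2 fold change over all genes tested was -0.01. Of the genes called higher, 1695 had every male above every female (9.47% of those tested), and of those called lower 682 had every male below (3.81%). Called or not, every male lay above every female at 3469 genes (19.4%) and below every female at 3179 (17.8%). The called genes were spread over the genome, at 11.7% to 18.4% of the tested genes of each autosome, and protein-coding genes were called at 16.4%. DESeq2 called 3759 genes, 2403 higher (13.4%) and 1356 lower (7.58%). Leaving out 1 library at a time gave from 1310 calls (without control male 1) to 2993 (without high-fat male 2), and the count also fell by more than 1.5 times without high-fat male 1 (1447), control female 1 (1605) or control female 2 (1647). Without high-fat male 3 there were 2028 calls, 1451 higher and 577 lower.

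**Figure D1:**
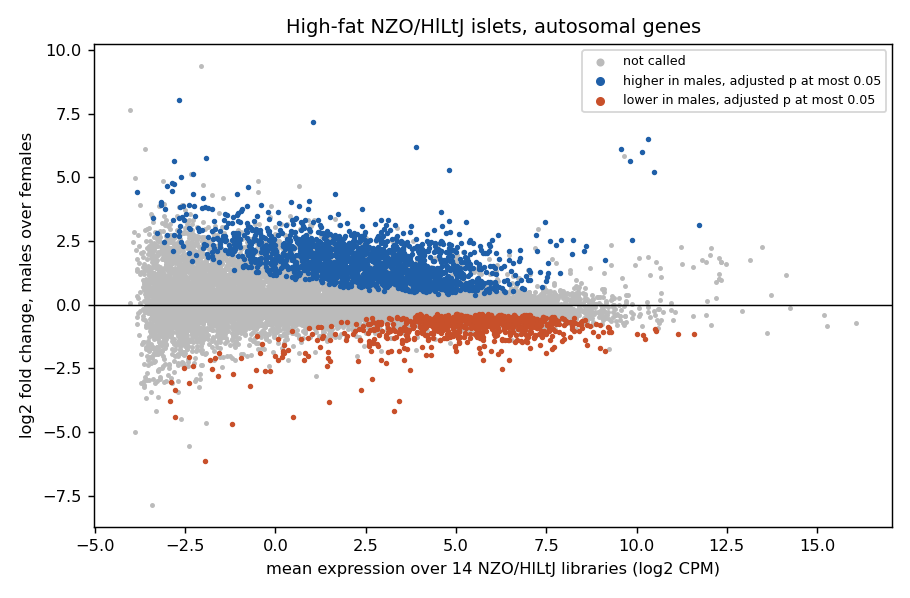
Log2 fold change of high-fat males over high-fat females (vertical axis) against mean expression over the 14 NZO/HlLtJ libraries in log2 CPM (horizontal axis), 1 point per autosomal gene. Blue points are the 1810 genes called higher in males and orange points the 749 called lower; large folds are mostly upward.

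The 10 protein-coding genes with the largest upward folds were chosen among called genes with every male above every female. Their lack of overlap is therefore a condition of the choice, not a result. They included digestive proteases, matrix proteins, a complement component and a gut hormone. Levels follow the order of males 1, 2 and 3 and of females 1, 2, 3 and 4, and log2 fold changes are males over females with their standard error (SE, 14 samples). The fold changes come from the fit with its number range term and need not equal ratios of the printed levels. Only the first number range holds high-fat libraries of both sexes, male 1 and females 1 and 2. The fold changes therefore do not weigh all males and females alike, and they also draw on the control libraries. C7, a terminal complement component (chromosome 15, 4988762 to 5063773 in GRCm38), was measured at 51.4, 43.3 and 58.1 CPM in males and 1.33, 0.4, 2.33 and 1.15 CPM in females. Males minus females gave 6.17 ± 0.56 (adjusted p = 0.000496) on the log2 scale, and the call held whichever library was left out. Fmod, the collagen-binding proteoglycan fibromodulin, stood at 4.66, 9.02 and 19 CPM in males and 0.318, 0.64, 1.94 and 1.81 CPM in females, a log2 fold change of 4.36 ± 0.74 (adjusted p = 0.00664). Itgbl1, a secreted protein with integrin-like repeats, had 13.7, 13.1 and 20.5 CPM against 1.44, 0.913, 3.75 and 3.33 CPM and a log2 fold change of 3.76 ± 0.44 (adjusted p = 0.0042). For both matrix genes the lowest male exceeded the highest female, as the choice required.

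Cck, the gene of the gut hormone cholecystokinin, which beta cells of obese mice are known to express, was at 94.6, 78.7 and 93.4 CPM in males and 2.06, 19.5, 16.2 and 10.3 CPM in females. The log2 fold change was 3.65 ± 1.07 (adjusted p = 0.0416), and the call was lost on leaving out any library other than high-fat female 2, control male 2 and control male 3 (adjusted p from 0.0506 to 0.24). Without high-fat female 2 it was called at 6.00. Gast, the gastrin gene, had 8.83, 4.96 and 3.62 CPM in males and 0.25, 1.97, 1.16 and 2.17 CPM in females, a log2 fold change of 2.98 ± 0.81 (adjusted p = 0.0308) that lost its call without high-fat male 1, high-fat female 1, control male 1 or control female 1 (adjusted p from 0.0556 to 0.291). Slc5a10, a sodium-coupled sugar transporter, stood at 108, 79.6 and 103 CPM against 0.273, 8.28, 8.48 and 4.12 CPM with a log2 fold change of 5.27 ± 1.63 (adjusted p = 0.0497). Its call was lost on leaving out any library other than high-fat female 2, control male 2 and control male 3 (adjusted p from 0.0585 to 0.508), and its fold was 9.65 without high-fat female 2. In Cck, Gast and Slc5a10 alike, high-fat female 1 was the lowest library. Every male was above every female, which the choice required of Cck and Slc5a10 but not of Gast.

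Pga5, a pepsinogen, was uneven among the males at 7.29, 0.715 and 20.8 CPM, against 0.0682, 0.064, 0.0259 and 0.0505 CPM in females. It had the largest fold of the named genes, 7.18 ± 1.24 (adjusted p = 0.00697), and lost its call without high-fat male 1 (adjusted p = 0.0749). Inmt, a methyltransferase of indole amines, had 7.7, 11.3 and 10.5 CPM in males and 1.19, 0.112, 1.54 and 1.1 CPM in females, with a log2 fold change of 3.56 ± 0.87 (adjusted p = 0.0209). Mmp7, a matrix metalloproteinase of duct-like epithelium, had 5.88, 6.52 and 19.2 CPM against 1.07, 0.352, 1.24 and 1.45 CPM and a log2 fold change of 3.43 ± 0.97 (adjusted p = 0.0355). Male 3 was highest in Pga5 and Mmp7. The call of Inmt was lost without high-fat male 1 or control male 1 (adjusted p from 0.0588 to 0.171), and without high-fat female 1 its fold was 5.63. The call of Mmp7 was lost without high-fat male 1, high-fat male 3, high-fat female 2, high-fat female 3, high-fat female 4, control male 1 or control female 2 (adjusted p from 0.0504 to 0.143).

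The 10 genes with the largest downward folds were chosen the same way, with every male below every female. Among them were a ganglioside synthase, a peptide hormone receptor, potassium channels and the enzyme that feeds pyruvate into the tricarboxylic acid cycle. Pcx, pyruvate carboxylase (chromosome 19, 4510472 to 4621752 in GRCm38), stood at 21.9, 29.7 and 22.5 CPM in males and 127, 76, 79.3 and 56.2 CPM in females, and its log2 fold change was -2.19 ± 0.37 (adjusted p = 0.00664). St8sia1, which makes gangliosides, had 2.41, 3.39 and 2.95 CPM against 18.5, 11.3, 9.41 and 12.2 CPM and a log2 fold change of -2.55 ± 0.35 (adjusted p = 0.0049). Crhr1, a receptor for corticotropin-releasing hormone and urocortins, had 0.931, 0.529 and 0.642 CPM against 5.87, 3.14, 2.08 and 1.98 CPM and -2.40 ± 0.33 (adjusted p = 0.00486) on the log2 scale. The calls of these 3 genes held on leaving out any 1 library.

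Angptl7, a secreted angiopoietin-like protein, was at 25.6, 34.7 and 15.8 CPM in males and 97.8, 147, 95.8 and 103 CPM in females, with a log2 fold change of -2.51 ± 0.44 (adjusted p = 0.00722). Cyp4f39, a fatty acid hydroxylase, had 0.701, 1.23 and 0.0546 CPM against 16.6, 4.71, 4.11 and 7.42 CPM and a log2 fold change of -4.17 ± 0.88 (adjusted p = 0.0118). Both kept their calls whichever library was left out, and male 3 was the lowest library in each. Kcnf1, a silent subunit of voltage-gated potassium channels, had 0.504, 3.03 and 2.04 CPM in males and 16.6, 4.28, 5.8 and 6.91 CPM in females. Its log2 fold change of -3.78 ± 0.80 (adjusted p = 0.0122) was not called without high-fat male 1 (adjusted p = 0.0683). Acvr1c, a receptor of the activin family, had 2, 3.39 and 1.6 CPM against 12.2, 6.53, 7.17 and 11.9 CPM, a log2 fold change of -2.30 ± 0.50 (adjusted p = 0.0134) and no call without high-fat male 1 (adjusted p = 0.0668). Kcnj12, Cdh7 and T2 completed the 10, with log2 fold changes of -2.23 ± 0.66, -2.23 ± 0.59 and -3.84 ± 0.97 and adjusted p of 0.0414, 0.0281 and 0.0235. Female 1 was the highest library in all 3, and without it none was called, with adjusted p of 0.193, 0.121 and 0.0963. Kcnj12 was also lost on leaving out any library other than high-fat female 2, control male 2 and control male 3 (adjusted p from 0.0527 to 0.193), Cdh7 without high-fat male 1, high-fat female 1, control male 1, control female 1, control female 2 or control female 3 (adjusted p from 0.0554 to 0.121) and T2 without high-fat male 1, high-fat female 1, control male 1, control female 1 or control female 3 (adjusted p from 0.0501 to 0.0996).

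Insulin transcripts took a smaller share of counts in high-fat males. Ins2, the main insulin gene of the mouse (chromosome 7, 142678656 to 142699510 in GRCm38), held 5.28%, 5.21% and 2.67% of counts in the males and 6.92%, 7.9%, 7.6% and 8.58% in the females, or 4.38% ± 1.49 (SD, n = 3) against 7.75% ± 0.69 (SD, n = 4). All males were below all females, by 3.37 percentage points on average (two-sided exact permutation p = 0.0571, the smallest that 35 splits of 3 against 4 allow). In whole islet preparations, fewer cells of a type and less RNA per cell cannot be told apart. With the acinar genes left out of the total, the difference was -3.23 percentage points (two-sided exact permutation p = 0.0571).

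In the gene-wise test Ins2 was not called, at a log2 fold change of -0.73 ± 0.48 (adjusted p = 0.348). Ins1, the other insulin gene, read 29300, 33400 and 13400 CPM in males and 40300, 54900, 50300 and 59600 CPM in females, with a log2 fold change of -0.83 ± 0.48 (adjusted p = 0.265). Glucagon (Gcg, 0.39 ± 0.38), somatostatin (Sst, -0.18 ± 0.25), islet amyloid polypeptide (Iapp, -0.15 ± 0.38) and pancreatic polypeptide (Ppy, 1.08 ± 0.42) had adjusted p of 0.549, 0.686, 0.831 and 0.109. Pyy, peptide YY, stood at 750, 987 and 1050 CPM in males and 561, 657, 808 and 747 CPM in females and was not called at 0.74 ± 0.24 (adjusted p = 0.0635). Of the 8 islet hormone genes none was called, 2 had an unadjusted p under 0.05, and DESeq2 called 2 higher and 2 lower. Without high-fat male 1, edgeR called 3 of them higher.

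**Figure D2:**
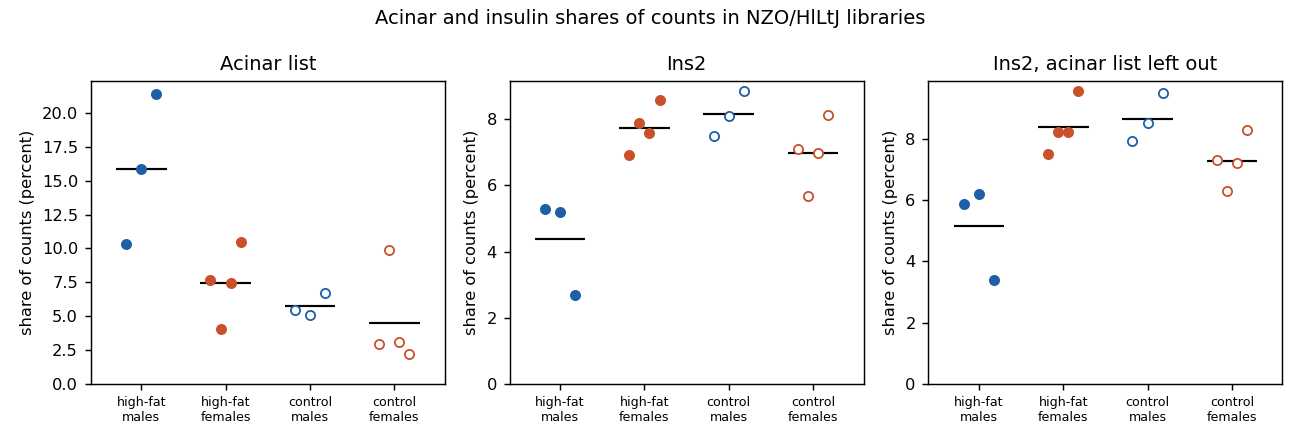
Share of each library's counts in the acinar list (left), in Ins2 (middle) and in Ins2 with the acinar list left out of the total (right), in percent, for the 14 NZO/HlLtJ libraries; points are libraries and lines group means. High-fat males hold 2.67% to 5.28% Ins2 against 6.92% to 8.58% in high-fat females, and their acinar shares of 10.3% to 21.4% overlap the females' 4.08% to 10.5%.

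Genes of beta cell identity, the transcription factors, receptors, transporter and peptides that mark mature beta cells, were lower in high-fat males. Of 30 tested, 18 fell and none rose, against 4.19% of all genes tested called lower, and the median log2 fold change was -0.92 against -0.01 over all genes. In 26 of the 30, every male lay below every female (17.8% of all genes tested). Summed over the list, levels were 3130 to 5920 CPM in males and 10500 to 13300 CPM in females, with male 3 lowest. Acinar transcripts took 15.9% of counts in males and 7.41% in females on average, and macrophage, stellate cell and duct markers were higher in males. With an acinar score of each library (mean log2 CPM of the acinar list) as a term in the same fit, the median was -0.71 and none of the 30 was called. That fit called 2 of all 17890 genes tested. In a fit of all 45 libraries with the score, 25 of the 30 were called lower, beside 3439 of 19613 genes, with a median of -1.09. Without the score and without high-fat male 3, the count stayed at 18 with a median of -0.74. It fell to 8 without high-fat female 1 or control male 1 and to 9 without control female 1 or 2. It was 10 without high-fat male 1 and 11 without high-fat female 2 or control female 3.

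Ucn3, urocortin 3, a peptide of mature beta cells (chromosome 13, 3940688 to 3945349 in GRCm38), was at 85.2, 78.5 and 26.7 CPM in males and 249, 200, 163 and 242 CPM in females. The log2 fold change of Ucn3 was -1.73 ± 0.43 (adjusted p = 0.0229), and the highest male was below the lowest female. Slc2a2, the glucose transporter GLUT2 (chromosome 3, 28697903 to 28731359 in GRCm38), stood at 139, 195 and 97.3 CPM against 531, 309, 269 and 500 CPM, with a log2 fold change of -1.60 ± 0.42 (adjusted p = 0.028). Females 1 and 4 were highest and the groups did not overlap. The call of Ucn3 was lost without high-fat female 1, control male 1 or control female 1 (adjusted p from 0.0501 to 0.0516), and that of Slc2a2 without high-fat male 1, high-fat female 1, control male 1, control female 2 or control female 3 (adjusted p from 0.0538 to 0.126).

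Trpm5, a calcium-activated cation channel (chromosome 7, 143069153 to 143094642 in GRCm38), read 13.3, 16.6 and 7.61 CPM in males and 71.1, 45, 47 and 64 CPM in females. It had the largest downward fold of the list, -2.16 ± 0.38 (adjusted p = 0.00721). Glp1r, the receptor of the incretin GLP-1, had 54.8, 61.5 and 24.1 CPM against 183, 140, 126 and 136 CPM and a log2 fold change of -1.71 ± 0.38 (adjusted p = 0.0138). The receptor of the incretin GIP, Gipr, showed 13.1, 10.6 and 6.87 CPM against 33, 28.6, 26.4 and 41.7 CPM and -1.64 ± 0.36 (adjusted p = 0.0137) on the log2 scale. In all 3 the males were below the females with male 3 lowest, and no library left out ended a call.

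Ppp1r1a, an inhibitor of protein phosphatase 1, stood at 67.2, 65.9 and 38.4 CPM in males and 199, 157, 119 and 177 CPM in females with a log2 fold change of -1.58 ± 0.29 (adjusted p = 0.0077). Nkx6-1, a homeobox factor of beta cells, had 135, 128 and 58 CPM against 305, 302, 237 and 248 CPM and -1.33 ± 0.30 (adjusted p = 0.0155). Both calls held on leaving out any 1 library and the groups did not overlap. Mafa, which drives insulin transcription, and Pdx1, the master factor of pancreas and beta cells, had all males below all females as well. Mafa was at 65.4, 39 and 19.1 CPM against 134, 157, 89.8 and 66.9 CPM (-1.39 ± 0.47) and Pdx1 at 116, 110 and 47.7 CPM against 199, 224, 174 and 187 CPM (-0.90 ± 0.30), with adjusted p of 0.0672 and 0.0647, so neither passed the threshold.

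**Figure D3:**
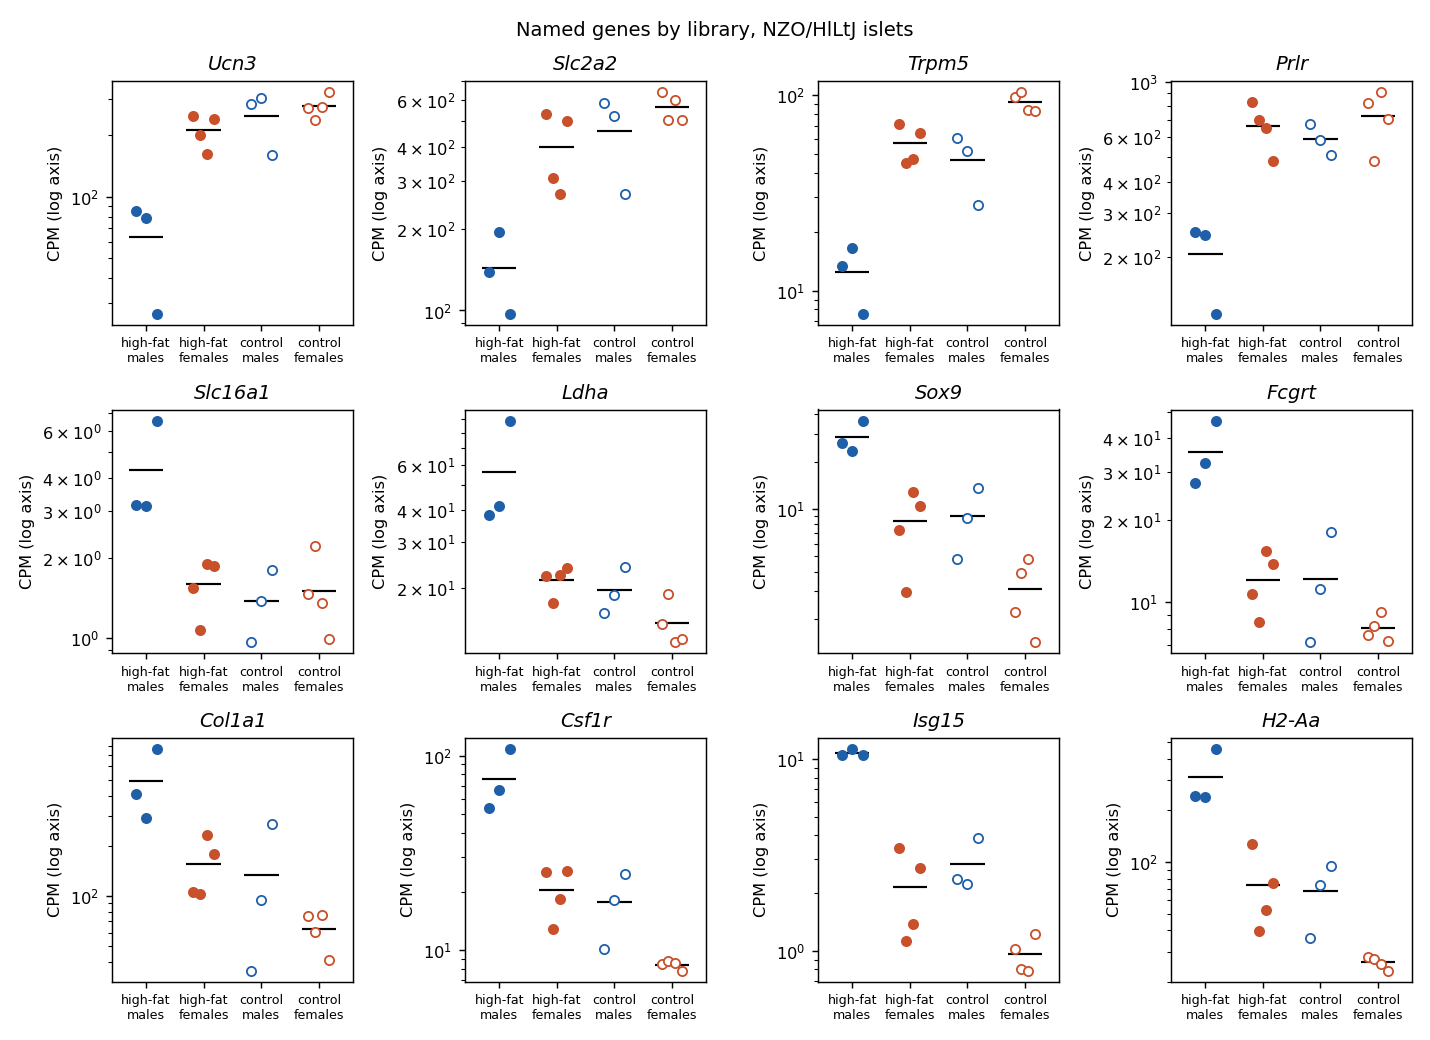
CPM on a log axis for 12 named genes in the 14 NZO/HlLtJ libraries; filled points are high-fat and open points control libraries, blue males and orange females, and lines are group means. Ucn3, Slc2a2, Trpm5 and Prlr are lower in every high-fat male than in any high-fat female, and the other 8 genes higher.

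Genes that couple glucose to exocytosis were mostly lower where called. Of 24 ion channel and vesicle fusion genes tested, 9 fell and 1 rose (4.19% and 10.1% of all genes did), with a median of -0.62. Leaving out 1 library gave 3 (control male 1) to 14 (high-fat male 2) lower, with 4 without high-fat female 1, control female 1 or control female 3 and 5 without high-fat male 1, control female 2 or control female 4. Pclo, the active-zone scaffold piccolo, had 160, 175 and 109 CPM in males and 370, 307, 267 and 334 CPM in females and a log2 fold change of -1.29 ± 0.24 (adjusted p = 0.00863). Rims2, another vesicle docking protein, stood at 20.4, 20.2 and 15.9 CPM against 33.3, 29.4, 29 and 27.3 CPM with -0.72 ± 0.15 (adjusted p = 0.0122), and the groups did not overlap in either gene. Kcnma1, a calcium-activated potassium channel, had 11.1, 15.4 and 9.06 CPM against 23.4, 23.7, 21.1 and 13.4 CPM. Female 4 lay among the males, and the log2 fold change was -1.17 ± 0.25 (adjusted p = 0.0127).

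Of 16 genes of the secretory granule and prohormone processing, 1 fell: Pcsk1, the convertase that cuts proinsulin, at 396, 376 and 227 CPM in males and 580, 984, 755 and 692 CPM in females. Its log2 fold change of -1.08 ± 0.28 (adjusted p = 0.0248) lost its call without high-fat male 1, high-fat female 2 or control female 2 (adjusted p from 0.051 to 0.0853), which left 0 of the list, while without high-fat male 2 there were 4. Chga, the granule protein chromogranin A, had all males below all females at 8290, 8210 and 4400 CPM against 14200, 20500, 13200 and 15100 CPM and was not called, at -1.13 ± 0.37 (adjusted p = 0.0609). Vamp2 and Ptprn2, a vesicle fusion protein and a granule membrane protein, had log2 fold changes of -0.49 ± 0.16 and -0.73 ± 0.26 with adjusted p of 0.0607 and 0.0836. The list median was -0.47, and DESeq2 called 5 lower.

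Among 15 genes of the other islet endocrine cells, 1 rose and 2 fell, beside 10.1% and 4.19% of all genes. Hhex, the homeobox factor of delta cells, was at 17.3, 16 and 26.1 CPM in males and 8.47, 4.82, 10.5 and 10.5 CPM in females, with a log2 fold change of 1.42 ± 0.27 (adjusted p = 0.00852). Slc7a2, an arginine transporter, had 161, 200 and 146 CPM against 366, 233, 275 and 304 CPM and -1.05 ± 0.27 (adjusted p = 0.0254). Sstr3, a somatostatin receptor, had 155, 158 and 124 CPM against 202, 241, 228 and 224 CPM and -0.74 ± 0.21 (adjusted p = 0.0372). The sexes did not overlap in these 3 genes. The call of Slc7a2 was lost without high-fat male 1, high-fat female 1, control male 1 or control female 2 (adjusted p from 0.0517 to 0.0845), and that of Sstr3 without high-fat male 1, high-fat male 3, high-fat female 2, control male 1, control female 1, control female 2 or control female 3 (adjusted p from 0.0519 to 0.0818). Loxl4, a lysyl oxidase of alpha cells, was higher in every male but not called, at 1.44 ± 0.46 (adjusted p = 0.0547). The list median was 0.16.

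Genes that mature beta cells keep silent, often called disallowed genes, were higher in the males almost without exception. Of 24 tested, 23 rose against 10.1% of all genes called higher, none fell, and the median log2 fold change was 1.68. In all 24, every male was above every female (19.4% of all genes tested). Their summed level was 796 to 1320 CPM in males and 296 to 452 CPM in females. The count was 21 without high-fat male 3 and 15 without high-fat female 2, and 5 of the 24 also stand in another list used here. Markers of stromal cells and macrophages, which express many of these genes, moved the same way: the summed level of 21 stellate cell and fibroblast genes was 3430 to 6090 CPM in males and 1510 to 2660 CPM in females and that of 22 macrophage genes 938 to 1630 CPM in males and 259 to 434 CPM in females. Their part in this result was not tested.

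Ldha, lactate dehydrogenase A (chromosome 7, 46841475 to 46855627 in GRCm38), was at 38.4, 41.7 and 89.1 CPM in males and 22.2, 17.4, 22.5 and 23.9 CPM in females. Male 3 was highest, no male overlapped a female, and the log2 fold change was 1.56 ± 0.37 (adjusted p = 0.0179). Slc16a1, the lactate and pyruvate transporter MCT1 (chromosome 3, 104638668 to 104658462 in GRCm38), had 3.17, 3.12 and 6.57 CPM against 1.54, 1.07, 1.9 and 1.87 CPM and 1.91 ± 0.45 (adjusted p = 0.0184). Both calls were lost without high-fat female 2, with adjusted p of 0.052 for Ldha and 0.0528 for Slc16a1. Fcgrt, the neonatal Fc receptor (chromosome 7, 45092993 to 45103822 in GRCm38), stood at 27.5, 32.6 and 46.5 CPM in males and 10.7, 8.44, 15.4 and 13.8 CPM in females, and its log2 fold change was 1.83 ± 0.27 (adjusted p = 0.00538). Zfp36l1, an RNA-binding protein whose transcript shares at least 50% of its 31-base words with another gene and is uncertain, had 1.86 ± 0.28 (adjusted p = 0.00538). Cxcl12, a chemokine of stromal cells, had 34.7, 42.8 and 60.4 CPM against 15.8, 8.89, 18.6 and 19.9 CPM and a log2 fold change of 2.06 ± 0.33 (adjusted p = 0.00613). Ndrg2, a stress-regulated gene, had 25.2, 30 and 35.2 CPM against 14.7, 12, 21.8 and 18.1 CPM and 1.08 ± 0.18 (adjusted p = 0.00664). Calls of these last 4 genes held on leaving out any 1 library.

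Of 14 markers used for dedifferentiated beta cells, 7 rose (10.1% of all genes did) and none fell, with a median of 1.26. Markers of other cells rose beside them, in 17 of 21 stellate cell and fibroblast, 10 of 17 duct and 21 of 22 macrophage genes, and their part in this result was not tested. The count was 6 without high-fat male 3 and 4 without high-fat male 1, control male 1 or control female 1. Rest, a repressor of neuronal genes that beta cells lack, was at 9.91, 10.4 and 18.9 CPM in males and 4.25, 3.62, 5.07 and 5.3 CPM in females, with a log2 fold change of 1.78 ± 0.34 (adjusted p = 0.00898). Sox9, a factor of progenitors and ducts, had 26.3, 23.3 and 36.4 CPM against 7.36, 2.99, 12.8 and 10.4 CPM and 2.43 ± 0.52 (adjusted p = 0.0122), a call lost without high-fat male 1 (adjusted p = 0.0557). Vim, the intermediate filament vimentin, had 127, 141 and 221 CPM against 53.4, 45, 68.5 and 72.1 CPM and 1.80 ± 0.31 (adjusted p = 0.00691). Cd81, a tetraspanin of immature beta cells, had 109, 102 and 156 CPM against 66.6, 59.4, 64.6 and 63.9 CPM and 0.94 ± 0.18 (adjusted p = 0.00869). These 4 genes did not overlap between the sexes. Aldh1a3, an aldehyde dehydrogenase widely used as a mark of failing beta cells, did overlap, at 157, 144 and 76.1 CPM in males and 103, 240, 176 and 136 CPM in females. Aldh1a3 had a log2 fold change of 0.07 ± 0.41 (adjusted p = 0.935), and its sign turned under other settings, for example to -0.35 without the number range term.

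**Figure D4:**
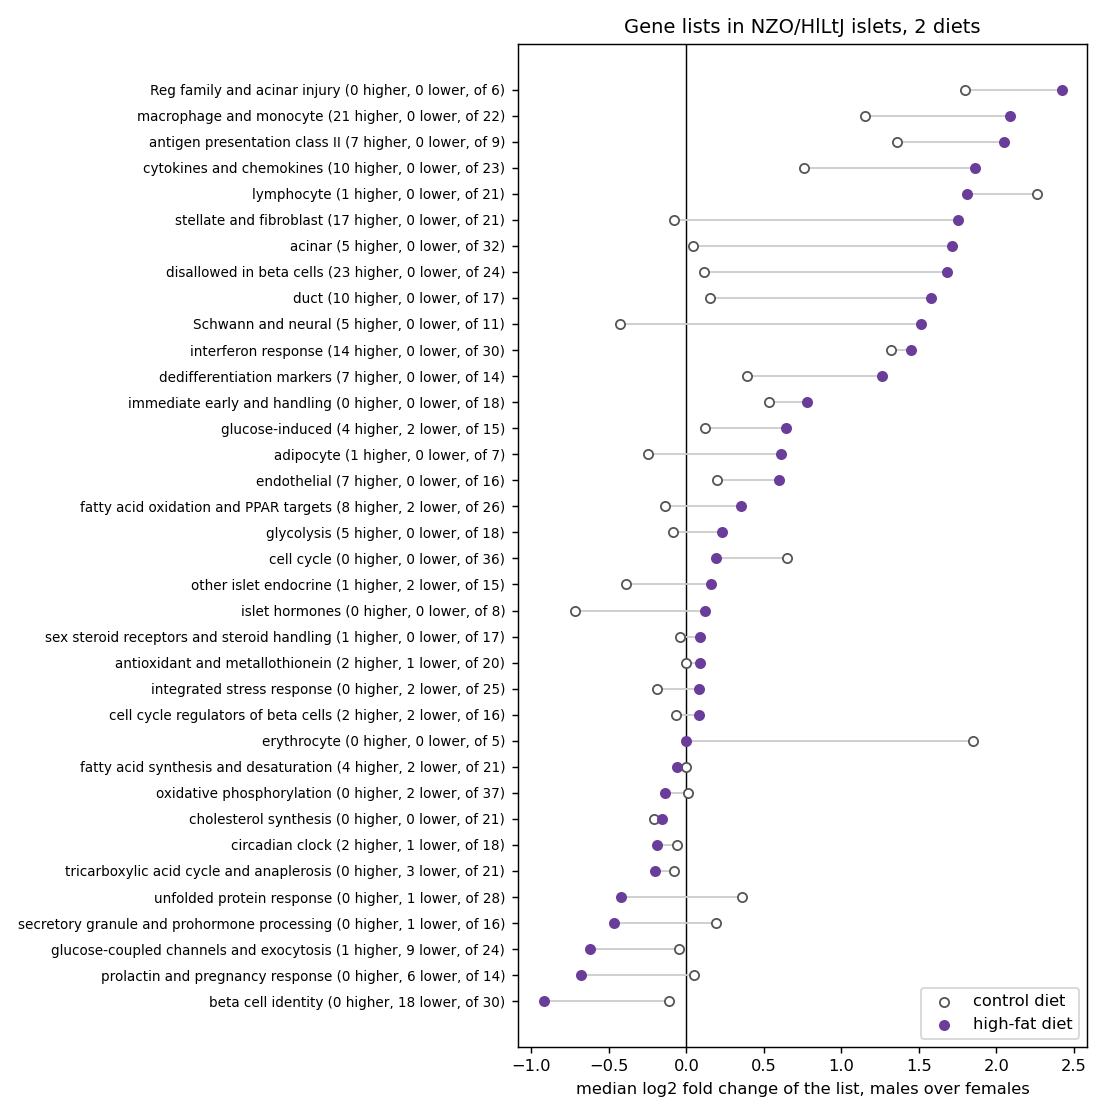
Median log2 fold change of males over females in each of 36 gene lists in NZO/HlLtJ islets, on the high-fat diet (filled) and on the control diet (open); the labels give how many tested members were called higher or lower on the high-fat diet. On the high-fat diet the Reg family and acinar injury list (2.42, none called) lies furthest to the right, followed by macrophage genes (2.09) and class II genes (2.05). Beta cell identity (-0.92) lies furthest to the left.

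Of 18 glycolytic genes tested, 5 rose (10.1% of all genes did) and none fell, with a median of 0.23, and the number called was 3 without high-fat female 2. Pfkfb3, which raises glycolytic flux in many proliferating and immune cells, was at 32.1, 46.7 and 63.7 CPM in males and 8.62, 9.14, 14.9 and 11.3 CPM in females, with a log2 fold change of 2.08 ± 0.27 (adjusted p = 0.00443). Hk1, the low-Km hexokinase that beta cells repress, had 27.5, 25.2 and 41.1 CPM against 17.8, 13.9, 15.7 and 18.5 CPM and 1.13 ± 0.26 (adjusted p = 0.0162). Pfkfb2, the related gene counted in the glucose-induced list, went the other way, at 38.6, 37.1 and 30.6 CPM against 103, 79.7, 70.4 and 75.7 CPM and -1.37 ± 0.24 (adjusted p = 0.00711). All 3 calls held on leaving out any 1 library, and the sexes did not overlap in any of them. Aldoc, aldolase C, had a log2 fold change of 1.32 ± 0.33 (adjusted p = 0.0217) and lost its call without high-fat male 1 or high-fat female 2 (adjusted p from 0.0611 to 0.162).

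Few mitochondrial genes were called. Of 37 nuclear genes of oxidative phosphorylation 2 fell (median -0.14), near the 4.19% of all genes called lower, and of 21 of the tricarboxylic acid cycle and anaplerosis 3 fell (median -0.20), with Pcx among them. In 17 of the 37 and 10 of the 21, every male lay below every female (17.8% of all genes). Ndufs1, a subunit of complex I, was at 59.5, 58.2 and 45.4 CPM in males and 80.6, 79.8, 72 and 70.1 CPM in females, with a log2 fold change of -0.46 ± 0.13 (adjusted p = 0.0409). Ogdh, an enzyme of the cycle, was at 225, 242 and 191 CPM against 363, 374, 330 and 247 CPM, with -0.67 ± 0.18 (adjusted p = 0.0308). The call of Ndufs1 was lost on leaving out any library other than high-fat male 2, high-fat female 4, control male 2 and control male 3 (adjusted p from 0.0508 to 0.107) and that of Ogdh without high-fat male 1, high-fat female 1, high-fat female 2, control male 1, control female 1, control female 2 or control female 4 (adjusted p from 0.0583 to 0.133). The 2 calls of oxidative phosphorylation became 0 without high-fat male 1 or high-fat female 1 and 1 on leaving out any other library except high-fat male 2, high-fat female 4, control male 2 or control male 3. The 3 calls of the cycle became 1 without high-fat male 1, high-fat female 1, control male 1, control female 1, control female 2 or control female 4. Transcripts of the mitochondrial genome took 1.6% of counts in males and 1.69% in females on average (two-sided exact permutation p = 0.686).

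Lipid genes moved both ways. Of 21 genes of fatty acid synthesis and desaturation 4 rose and 2 fell, beside 10.1% and 4.19% of all genes. The 2 lower calls became 0 without high-fat male 1 or high-fat female 2 and 1 on leaving out any other library except high-fat male 2, high-fat male 3, high-fat female 3, high-fat female 4 or control male 3. Fads2, a desaturase, was at 50.8, 41.9 and 53.7 CPM in males and 25.1, 22.7, 32.2 and 34.2 CPM in females and had a log2 fold change of 1.04 ± 0.15 (adjusted p = 0.00538). Fads3, its neighbour in the gene family, had 13.8, 14.2 and 24.9 CPM against 5.59, 5.14, 8.88 and 8.07 CPM and 1.65 ± 0.29 (adjusted p = 0.00722). Scd1, stearoyl-CoA desaturase, had 1.61 ± 0.36 (adjusted p = 0.0153) and lost its call without high-fat female 2 (adjusted p = 0.0501). Elovl2, which lengthens polyunsaturated fatty acids, was lower at 61.9, 64.2 and 39.2 CPM against 93.1, 125, 98.4 and 103 CPM. Its log2 fold change was -0.79 ± 0.20 (adjusted p = 0.022), with no call without high-fat male 1 or high-fat female 2 (adjusted p from 0.0715 to 0.0871).

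Among 26 genes that burn fatty acids or answer to PPAR factors, 8 rose and 2 fell (median 0.35). Acot1, an acyl-CoA thioesterase, was at 4.38, 7.82 and 12.2 CPM in males and 1.74, 0.624, 1.62 and 1.48 CPM in females, with a log2 fold change of 2.53 ± 0.57 (adjusted p = 0.0149). Hadh, a dehydrogenase of beta-oxidation that restrains insulin secretion, fell instead, with 241, 274 and 165 CPM against 532, 430, 374 and 493 CPM and -1.06 ± 0.24 (adjusted p = 0.0149). Plin2, a lipid droplet protein, had 1.09 ± 0.27 (adjusted p = 0.0231) and Ehhadh, a peroxisomal enzyme, -0.69 ± 0.17 (adjusted p = 0.0195). The sexes did not overlap in these 4 genes. Plin2 lost its call without high-fat female 2 or control male 1 (adjusted p from 0.0522 to 0.0649) and Ehhadh without high-fat male 1 (adjusted p = 0.0895). The 8 higher calls became 1 without high-fat female 2 or control male 1, 2 without control female 2, 3 without high-fat female 4 or control male 3, 4 without high-fat male 3, high-fat female 3, control female 1 or control female 4 and 5 without control female 3. Of 21 cholesterol synthesis genes none was called by edgeR, 3 had an unadjusted p under 0.05, and DESeq2 called 2 lower. Lss, the synthase that makes lanosterol, was at 37.4, 37.8 and 28.2 CPM in males and 43.9, 61.2, 49.6 and 49.4 CPM in females, with every male below every female and a log2 fold change of -0.47 ± 0.23 (adjusted p = 0.201).

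Stress pathways showed few calls. Of 28 genes of the unfolded protein response 1 fell, Ero1lb, the oxidase that folds proinsulin, at 2150, 2080 and 1120 CPM in males and 3970, 5610, 3910 and 4050 CPM in females. For Ero1lb the log2 fold change was -1.17 ± 0.35 (adjusted p = 0.0429), with the call lost on leaving out any library other than high-fat male 2, control male 2 and control male 3 (adjusted p from 0.0501 to 0.121). The list median was -0.42, 1 call in 28 was near the 4.19% of all genes, every male was below every female in 15 of the 28 (17.8% of all genes), and DESeq2 called 3 lower. Hspa5, the chaperone BiP, was at 3000, 2470 and 2330 CPM against 3030, 6260, 3460 and 3660 CPM, with female 2 highest and a log2 fold change of -0.46 ± 0.38 (adjusted p = 0.468). Hyou1, Wfs1 and Canx, all of the endoplasmic reticulum, had -0.93 ± 0.35, -0.66 ± 0.28 and -0.36 ± 0.16 with adjusted p of 0.0946, 0.135 and 0.149, and no overlap between the sexes.

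Of 25 genes of the integrated stress response none rose and 2 fell: Slc7a5, an amino acid transporter, with -0.58 ± 0.15 (adjusted p = 0.0246), and Aldh18a1, of proline synthesis, with -0.55 ± 0.15 (adjusted p = 0.0307). Slc7a5 lost its call without high-fat female 1, control male 1 or control female 2 (adjusted p from 0.0516 to 0.0737), and Aldh18a1 without high-fat male 1, high-fat female 2, control male 1, control female 1, control female 2, control female 3 or control female 4 (adjusted p from 0.0513 to 0.0914). Atf4 and Ddit3, the factors at the centre of the response, overlapped between the sexes, with log2 fold changes of -0.06 ± 0.22 (adjusted p = 0.893) and 0.16 ± 0.39 (adjusted p = 0.819). Sesn2, a target of theirs, had -0.51 ± 0.18 (adjusted p = 0.0761). Txnip, the thioredoxin inhibitor that high glucose induces, was at 1190, 1460 and 1190 CPM in males and 225, 671, 506 and 948 CPM in females. Every male was above every female, and with 1.54 ± 0.49 (adjusted p = 0.0559) it missed the threshold.

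The glucose-induced list, 15 genes of which 9 stand in other lists too, had 4 higher and 2 lower, with a median of 0.64. Arrdc4, a relative of Txnip, had 94.6, 99.8 and 70.5 CPM in males against 22.2, 61.1, 51.3 and 52.8 CPM in females and a log2 fold change of 1.43 ± 0.40 (adjusted p = 0.0336). Tgfb1, a growth factor of many stromal and immune cells, had 22.8, 20.4 and 32.4 CPM against 13.3, 11.9, 11.9 and 11.9 CPM and 1.26 ± 0.25 (adjusted p = 0.00933). Arrdc4 lost its call on leaving out any library other than high-fat male 3, high-fat female 2, control male 2 and control male 3 (adjusted p from 0.0534 to 0.143). The higher count was 1 without high-fat male 1, and 2 on leaving out any other library except high-fat male 3, high-fat female 2, control male 2 or control male 3.

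Among 20 antioxidant genes, 2 rose and 1 fell, near the 10.1% and 4.19% of all genes. Gsta4, a glutathione transferase, was at 3.83, 4.66 and 18 CPM in males and 1.84, 0.753, 2.02 and 2.22 CPM in females and had 2.36 ± 0.63 (adjusted p = 0.0297), with male 3 far above the rest. Another transferase, Gstm1, had 22.5, 34.9 and 47 CPM against 15.9, 8.41, 17.6 and 21.9 CPM and 1.30 ± 0.36 (adjusted p = 0.0335). Nqo1, a quinone reductase, went down, at 1.83, 2.71 and 2.28 CPM against 9.23, 3.44, 3.73 and 5.52 CPM and -1.61 ± 0.44 (adjusted p = 0.032). Gsta4 lost its call without high-fat female 2, control male 1, control female 1, control female 2, control female 3 or control female 4 (adjusted p from 0.0541 to 0.0752), Gstm1 without high-fat male 3, high-fat female 2, control male 1, control female 1, control female 2, control female 3 or control female 4 (adjusted p from 0.051 to 0.0809) and Nqo1 without high-fat male 1, high-fat male 3, high-fat female 1, control male 1, control female 1, control female 2 or control female 3 (adjusted p from 0.0548 to 0.174). Nqo1 also moved to -1.07 without high-fat female 1. Txnrd1, a thioredoxin reductase, had -0.36 ± 0.12 (adjusted p = 0.0704).

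No gene of cell division was called. Of 36 tested none passed in edgeR or DESeq2 and 2 had an unadjusted p under 0.05, with a median of 0.19 on the high-fat and 0.65 on the control diet. Mki67, a marker of dividing cells, was at 30.8, 36.5 and 57.3 CPM in males and 33.7, 60.7, 30.2 and 32.8 CPM in females, a log2 fold change of -0.14 ± 0.47 (adjusted p = 0.88). Male 3 and female 2 were the 2 highest libraries. E2f1, Mcm6, Aurka and Mcm7, which drive or carry out replication and mitosis, had -0.63 ± 0.24, 0.47 ± 0.20, -0.68 ± 0.31 and 0.39 ± 0.20, with adjusted p from 0.108 to 0.209.

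Regulators of the beta cell cycle, 16 tested, gave 2 higher and 2 lower, beside 10.1% and 4.19% of all genes. Ccnd2, the D-type cyclin that beta cells depend on, was at 659, 698 and 428 CPM in males and 1560, 1360, 1160 and 991 CPM in females, with a log2 fold change of -1.18 ± 0.25 (adjusted p = 0.0113). Cdk6, a cyclin-dependent kinase, had 11.2, 11 and 24.7 CPM against 5.19, 3.91, 6.06 and 6.81 CPM and 1.86 ± 0.40 (adjusted p = 0.0129). Neither gene overlapped between the sexes, and both calls held on leaving out any 1 library. The inhibitors Cdkn2c and Cdkn1c had -0.97 ± 0.25 and 1.17 ± 0.35, with adjusted p of 0.0236 and 0.0449. Cdkn2c lost its call without high-fat female 2 (adjusted p = 0.0738), and Cdkn1c on leaving out any library other than high-fat male 2, high-fat female 1, high-fat female 4 and control male 2 (adjusted p from 0.0577 to 0.115).

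The prolactin receptor and some of the genes that respond to pregnancy were lower in males. Of 14 tested, 6 fell (4.19% of all genes did), none rose and 8 did not pass, with a median of -0.68, and 1 remained called without high-fat male 1. Prlr, the receptor of prolactin and placental lactogen (chromosome 15, 10177238 to 10349180 in GRCm38), was at 252, 246 and 119 CPM in males and 831, 706, 655 and 482 CPM in females. For Prlr this was a log2 fold change of -1.83 ± 0.35 (adjusted p = 0.00898), all males lay below all females, and the call held on leaving out any 1 library. Ivd, a dehydrogenase of leucine breakdown, had 19.9, 25.4 and 23 CPM against 54.3, 37.4, 36.3 and 40.9 CPM and -1.21 ± 0.25 (adjusted p = 0.0106). Stat5b, a transcription factor downstream of Prlr, had 53.2, 60.3 and 56.8 CPM against 82.9, 75.4, 72.8 and 60.7 CPM and -0.59 ± 0.14 (adjusted p = 0.0191). The sexes did not overlap in either. Ivd lost its call without high-fat male 1 (adjusted p = 0.0573), and Stat5b without high-fat male 1 or high-fat female 1 (adjusted p from 0.0541 to 0.078).

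Of 17 sex steroid receptors and steroid-handling genes, 1 rose (10.1% of all genes did): Hsd11b1, which regenerates active glucocorticoid, at 15, 18.4 and 29.7 CPM in males and 3.75, 2.48, 5.21 and 5.32 CPM in females. Its log2 fold change of 2.83 ± 0.37 (adjusted p = 0.00479) held on leaving out any 1 library. Esr1, estrogen receptor alpha, was at 2.48, 2.83 and 2.73 CPM in males and 2.27, 1.43, 2.64 and 2.45 CPM in females, overlapping, with 0.80 ± 0.34 (adjusted p = 0.137). Ncoa1, a receptor coactivator, and Srd5a1, a 5-alpha reductase, had -0.59 ± 0.23 and 0.94 ± 0.37 and adjusted p of 0.108 and 0.111. Of 18 clock genes 2 rose and 1 fell, near the 10.1% and 4.19% of all genes. Dbp, an output factor of the clock, had 7.2, 12.8 and 13.1 CPM against 4, 2.55, 6 and 9.81 CPM and 1.30 ± 0.28 (adjusted p = 0.0131), with female 4 among the males. Clock itself had -0.64 ± 0.16 (adjusted p = 0.0218), Nr1d1 1.44 ± 0.44 (adjusted p = 0.0459) and Bhlhe40 0.90 ± 0.31 (adjusted p = 0.0696). Clock lost its call without high-fat male 1, high-fat female 1 or control male 1 (adjusted p from 0.0529 to 0.134), and Nr1d1 on leaving out any library other than high-fat female 1, high-fat female 3, high-fat female 4 and control male 3 (adjusted p from 0.0505 to 0.12). Times of tissue collection are not given in the labels used here.

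Transcripts of acinar cells, the enzyme-secreting cells around islets, were plentiful in every library. The 32 acinar genes held 10.3%, 15.9% and 21.4% of counts in males and 7.67%, 4.08%, 7.44% and 10.5% in females, or 15.9% ± 5.56 (SD, n = 3) against 7.41% ± 2.61 (SD, n = 4). The ranges overlapped between male 1 and female 4, and the difference of 8.46 percentage points had a two-sided exact permutation p of 0.114. By gene, 5 of the 32 rose and none fell, with a median log2 fold change of 1.71. Leaving out high-fat male 1 gave 21 calls, leaving out control female 3 or 4 gave 3, and leaving out high-fat female 1, high-fat female 2 or control male 1 gave 2.

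Trypsinogen genes led the list, and several share their sequence. Prss1 was at 1590, 2470 and 5420 CPM in males and 6.88, 131, 693 and 208 CPM in females, Prss3 at 2870, 4590 and 9340 CPM against 113, 363, 1550 and 603 CPM and Try5 at 5400, 9210 and 15600 CPM against 1170, 1880, 3910 and 3840 CPM. In all 3, at least 50% of the 31-base words also occur in another gene, so how reads were divided among them is uncertain. Their log2 fold changes were 6.10 ± 1.62, 5.20 ± 1.12 and 3.14 ± 0.81. Every male was above every female, which for Prss1 and Prss3 was a condition of their choice among the largest folds. Prss1 lost its call without high-fat male 1, high-fat female 1, control male 1 or control female 1 (adjusted p from 0.0502 to 0.0778) and Try5 without high-fat female 1, high-fat female 2, control male 1, control female 3 or control female 4 (adjusted p from 0.0523 to 0.0629). Spink1, a trypsin inhibitor, had 296, 541 and 833 CPM against 79.8, 82.2, 183 and 140 CPM and 3.24 ± 0.77 (adjusted p = 0.0188), and no call without high-fat female 2 (adjusted p = 0.051). In 7 of the 32 acinar genes every male was above every female (19.4% of all genes). Cpa1, a carboxypeptidase, stood at 6150, 10700 and 12600 CPM against 4840, 3020, 4770 and 8010 CPM with 1.67 ± 0.73 (adjusted p = 0.146), and Cel, a lipase, at 6740, 11600 and 13000 CPM against 5980, 3110, 5910 and 9110 CPM with 1.59 ± 0.73 (adjusted p = 0.164), and the sexes overlapped, with male 1 below female 4 in both. Genes of the Reg family and acinar injury summed to 1330 to 3560 CPM in males and 1180 to 2700 CPM in females, and none of 6 was called, with 0 at an unadjusted p under 0.05 and 1 called by DESeq2, while edgeR called 2 without high-fat male 1. Their median log2 fold change was 2.42, and -2.19 with the acinar score as a term.

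Duct cell markers were higher in males in 10 of 17 genes, with a median of 1.58 and a summed level of 1820 to 2770 CPM in males and 1010 to 1510 CPM in females. Leaving out high-fat male 1 gave 6. Spp1, osteopontin, was at 741, 606 and 1210 CPM in males and 175, 120, 332 and 236 CPM in females, with a log2 fold change of 2.54 ± 0.51 (adjusted p = 0.00979). Krt19, a keratin of ducts, had 20.2, 19.8 and 61.2 CPM against 4.75, 7.19, 12.7 and 10.1 CPM and 2.45 ± 0.51 (adjusted p = 0.0114). Anxa2, an annexin, had 71, 68.9 and 129 CPM against 33.4, 27.5, 40 and 37 CPM and 1.58 ± 0.27 (adjusted p = 0.00658), and Tspan8, a tetraspanin, 21.9, 26.3 and 43.2 CPM against 9.26, 9.7, 13.7 and 11.1 CPM and 1.89 ± 0.35 (adjusted p = 0.00804). Male 3 was highest in all 4, no sexes overlapped, and the 4 calls held on leaving out any 1 library.

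Stellate cell and fibroblast markers were higher in males: 17 of 21 rose and none fell, with a median of 1.75. In 19 of them every male was above every female (19.4% of all genes). Leaving out any 1 library left 14 to 18. Col1a1, the main fibrillar collagen (chromosome 11, 94936224 to 94953042 in GRCm38), was at 412, 293 and 764 CPM in males and 105, 102, 231 and 179 CPM in females. This difference was 2.51 ± 0.54 (adjusted p = 0.0131) on the log2 scale, with male 3 highest and no overlap. Dcn, decorin, had 132, 180 and 289 CPM against 37.9, 14.5, 50.6 and 63.2 CPM and 2.75 ± 0.45 (adjusted p = 0.00613), and Lum, lumican, 39.9, 44 and 78 CPM against 13.6, 8.87, 19.8 and 21.1 CPM and 2.40 ± 0.37 (adjusted p = 0.00593). Both bind collagen. Pdpn, podoplanin, had 7.2, 6.95 and 15.7 CPM against 1.55, 0.689, 4.37 and 2.41 CPM and 3.10 ± 0.60 (adjusted p = 0.00898), and Thy1, a surface protein of fibroblasts, 17.3, 15.4 and 29.8 CPM against 6.06, 4.61, 8.44 and 8.55 CPM and 2.14 ± 0.41 (adjusted p = 0.00884). All 5 calls held on leaving out any 1 library.

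Of 16 endothelial markers 7 rose, with a median of 0.60, and 4 did without high-fat male 1. Pecam1, the adhesion molecule CD31, was at 153, 153 and 211 CPM in males and 92.8, 90.1, 105 and 114 CPM in females, with 0.97 ± 0.19 (adjusted p = 0.00929). Egfl7, Cd34 and Tek, all of vessel cells, had log2 fold changes of 0.94 ± 0.17, 0.91 ± 0.18 and 0.88 ± 0.19. None of the 4 overlapped between the sexes, and their calls held on leaving out any 1 library. Of 11 Schwann cell and neural markers 5 rose, 3 without high-fat male 1 or control male 1. Sox10, the factor of glial cells, had 5.6, 4.95 and 6.39 CPM against 1.76, 1.62, 2.52 and 3.54 CPM and 2.02 ± 0.28 (adjusted p = 0.00486), Cdh19 2.03 ± 0.31 (adjusted p = 0.0057) and Erbb3, a neuregulin receptor, 1.71 ± 0.32 (adjusted p = 0.00865). Gfap, a glial filament, had 1.57 ± 0.37 (adjusted p = 0.0188) and lost its call without high-fat male 1 or control male 1 (adjusted p from 0.0515 to 0.0823). Summed over the list, the levels of 193 to 213 CPM in males and 182 to 201 CPM in females overlapped.

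Of 7 adipocyte markers 1 rose: Fabp4, a fatty acid carrier of fat cells and macrophages, at 26.9, 37.1 and 80.2 CPM in males and 13.2, 14.7, 20.4 and 26.7 CPM in females. Its log2 fold change of 1.43 ± 0.42 (adjusted p = 0.0416) lost its call on leaving out any library other than high-fat male 1, high-fat male 2, high-fat male 3 and control male 2 (adjusted p from 0.0508 to 0.0935). Lipe, Plin4 and Cidea, all of lipid storage, had 0.61 ± 0.22, 2.79 ± 1.09 and 1.62 ± 0.64 with adjusted p of 0.0836, 0.108 and 0.113. Of 5 erythrocyte genes edgeR and DESeq2 called none, with 0 at an unadjusted p under 0.05, and of 18 immediate early genes edgeR called none and DESeq2 1, with 4. The summed levels were 189 to 318 CPM in males and 84.5 to 177 CPM in females for the former and 588 to 1870 CPM in males and 441 to 4380 CPM in females for the latter, highest in female 4.

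Macrophage and monocyte markers formed the most uniform upward group among the cell type lists. Of 22 tested, 21 rose and none fell, and the median log2 fold change was 2.09. In all 22, every male was above every female (19.4% of all genes). The count was 20 without high-fat male 3 and at least 15 (control male 1) with any other library left out. Csf1r, the receptor macrophages need to survive, was at 53.9, 66.7 and 108 CPM in males and 25.3, 12.8, 18.3 and 25.5 CPM in females. Between the sexes Csf1r differed by 2.01 ± 0.37 (adjusted p = 0.00829) (log2), and male 3 was highest. Adgre1, the F4/80 antigen, had 24.4, 28 and 50.6 CPM against 10.8, 5.2, 7 and 8.46 CPM and 2.14 ± 0.44 (adjusted p = 0.0108). Cd14, an endotoxin receptor, had 16.1, 15.7 and 32.4 CPM against 4.14, 2.07, 5.41 and 6.11 CPM and 2.71 ± 0.50 (adjusted p = 0.00786), and Trem2, a lipid receptor, 4.1, 3.8 and 4.55 CPM against 0.796, 0.961, 1.27 and 1.28 CPM and 2.37 ± 0.40 (adjusted p = 0.00642). These calls held on leaving out any 1 library.

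Of 21 lymphocyte markers 1 was called by edgeR, with a median of 1.81 (2.26 on the control diet), while DESeq2 called 9 and edgeR without the number range term 17. Ptprc, the CD45 antigen of all white blood cells, was at 44.7, 64.7 and 102 CPM in males and 28.1, 6.5, 6.12 and 14.6 CPM in females, with 2.12 ± 0.64 (adjusted p = 0.0454). Its call was lost on leaving out any library other than high-fat male 2, high-fat female 1 and high-fat female 3 (adjusted p from 0.0542 to 0.102), and its log2 fold change was 3.39 without high-fat female 1. Cd79a, of the B cell receptor, had 2.8, 11.2 and 13.9 CPM against 1.61, 0.208, 0.129 and 0.48 CPM and 2.71 ± 0.86 (adjusted p = 0.0547). Il7r and Cd52, of lymphocytes, had 2.19 ± 0.68 and 1.81 ± 0.60, with adjusted p of 0.0513 and 0.0617. Female 1 was the highest female in all 4 genes. Without that library 16 of the 21 were called higher, without high-fat male 2 there were 2, and without any other 1 library but high-fat male 1 or high-fat female 3 none was.

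Class II antigen presentation genes, 9 tested, rose in 7, with a median of 2.05. In all 9, every male was above every female (19.4% of all genes). Summed, they were at 1450 to 2890 CPM in males and 265 to 819 CPM in females. H2-Aa, a class II chain, had 243, 240 and 457 CPM in males and 127, 39.3, 52.5 and 75.5 CPM in females and 2.13 ± 0.53 (adjusted p = 0.0227). Cd74, the invariant chain, had 693, 589 and 1230 CPM against 355, 124, 151 and 217 CPM and 2.00 ± 0.51 (adjusted p = 0.0246). H2-DMa, which loads peptide, and H2-Ea-ps, a class II pseudogene, had 1.62 ± 0.41 (adjusted p = 0.0229) and 2.05 ± 0.53 (adjusted p = 0.026). The calls were fragile to single libraries: none of the 9 was called without high-fat male 1 or high-fat female 2, 1 without control male 1 and 3 without control female 1. H2-Aa was lost without high-fat male 1, high-fat female 2 or control male 1 (adjusted p from 0.0513 to 0.0529), Cd74 without high-fat male 1, high-fat female 2 or control male 1 (adjusted p from 0.0556 to 0.07), H2-DMa without high-fat male 1 or high-fat female 2 (adjusted p from 0.0581 to 0.0922) and H2-Ea-ps without high-fat male 1, high-fat female 2, control male 1 or control female 1 (adjusted p from 0.0503 to 0.0629).

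Cytokine and chemokine genes rose in 10 of 23, with a median of 1.86, and in 6 without high-fat female 2. Summed over the list, levels did not rise, at 685 to 821 CPM in males and 790 to 1120 CPM in females. Cxcl16, a membrane-bound chemokine, was at 27.5, 24.1 and 46.3 CPM in males and 12.3, 6.93, 9.48 and 12 CPM in females, with 1.86 ± 0.34 (adjusted p = 0.00829). Tnfrsf1b, a receptor of tumour necrosis factor, had 18.9, 22.8 and 32.3 CPM against 8.01, 3.41, 6.91 and 8.55 CPM and 2.07 ± 0.38 (adjusted p = 0.00804). Ccl9, a chemokine of myeloid cells, had 3, 6.43 and 8.73 CPM against 0.887, 0.897, 1.53 and 1.44 CPM and 2.44 ± 0.47 (adjusted p = 0.00897). All 3 held on leaving out any 1 library, with every male above every female.

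Interferon response genes rose in 14 of 30 and none fell, the median was 1.45, and every male was above every female in 28 of 30 (19.4% of all genes). Type I interferons induce these genes through a factor complex that binds a short element with a GAAA repeat, known as the interferon-stimulated response element. The letters GAAA, any 2 bases and GAAA again, or TTTC, any 2 bases and TTTC for the other strand, were searched in the 250 bases before the start of each gene in RefSeq on GRCm38.p6. It was found in 395 of 12016 promoters of tested autosomal genes (3.29%), in 63 of 1304 of the genes called higher (4.83%) and in 11 of 557 of those called lower (1.97%). Of the interferon list, 23 members had a promoter in the table and 11 of them held the motif (47.8%), among them 5 of the 11 called members (45.5%). These 5 are printed here because they are the called members in which the element was found, with the matched bases, overlapping matches merged, in capitals and flanking bases in lower case, each written on the gene's own strand. A match is a string of letters, not a measured binding site.
Isg15 (chr4:156200855-156200916, minus strand): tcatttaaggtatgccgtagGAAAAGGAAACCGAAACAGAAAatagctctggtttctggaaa
Bst2 (chr8:71537567-71537622, minus strand): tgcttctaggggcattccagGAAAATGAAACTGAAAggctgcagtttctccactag
Oas1a (chr5:120907526-120907565, minus strand): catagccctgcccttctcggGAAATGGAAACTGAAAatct
Ifit1 (chr19:34640765-34640833, plus strand): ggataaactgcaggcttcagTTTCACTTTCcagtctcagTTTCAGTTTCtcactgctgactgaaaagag
Ifit3 (chr19:34583353-34583436, plus strand): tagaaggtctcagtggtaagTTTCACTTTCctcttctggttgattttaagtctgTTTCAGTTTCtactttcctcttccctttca

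Isg15, a ubiquitin-like protein (chromosome 4, 156199424 to 156200818 in GRCm38) with 3 overlapping matches above, was at 10.5, 11.3 and 10.5 CPM in males and 3.45, 1.12, 1.38 and 2.69 CPM in females. The males lay close together, every female was lower, and the log2 fold change was 2.28 ± 0.47 (adjusted p = 0.0107). Ifit2, of the family that binds viral RNA, had 25.3, 28.9 and 24.1 CPM against 11.6, 3.99, 4.17 and 8.11 CPM and 1.95 ± 0.43 (adjusted p = 0.0144). Ifi44 had 20.1, 17.1 and 26.4 CPM against 8.6, 3.25, 3.4 and 6.86 CPM and 2.08 ± 0.44 (adjusted p = 0.012). Oas1a, a synthase that activates RNA decay, uncertain because it shares at least 50% of its 31-base words with another gene, had 18, 19.4 and 30 CPM against 8.46, 3.94, 3.35 and 5.93 CPM and 1.83 ± 0.40 (adjusted p = 0.013). Ifit1 and Ifit3, of the same family as Ifit2 and each with 2 matches above, had log2 fold changes of 2.10 and 2.50, and Bst2, which tethers viruses to the cell surface, had 1.86. In females, 1 was the highest library and 2 or 3 the lowest in all 4 genes given by library.

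Ifi27l2a, another interferon-induced gene, stood at 13.2, 20.5 and 32.6 CPM in males and 3.45, 1.04, 1.07 and 6.14 CPM in females, with 3.18 ± 0.71 (adjusted p = 0.0141). Plac8, of myeloid and interferon-treated cells, had 18.8, 27.9 and 56.3 CPM against 8.59, 1.23, 3.14 and 6.44 CPM and 2.68 ± 0.78 (adjusted p = 0.0405). Isg15 lost its call without high-fat male 1 (adjusted p = 0.0657), Ifit2 without high-fat male 1 (adjusted p = 0.063) and Plac8 on leaving out any library other than high-fat male 2, high-fat female 1, high-fat female 3 and control male 3 (adjusted p from 0.0509 to 0.0983), and Plac8 moved to 4.25 without high-fat female 1. The 14 calls of the list became 2 without high-fat male 1, 5 without control male 1, 8 without high-fat female 2, 9 without control female 1 and 27 without high-fat female 1, and they were 11 without high-fat male 3. The summed level of the list was 2200 to 3460 CPM in males and 573 to 1770 CPM in females, beside the higher macrophage and lymphocyte levels given above. The part of those cells in it was not tested.

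On the control diet the same contrast, in 3 other males and 4 other females, called 2 autosomal genes (0.0112%), Slc5a7 and Cplx1, both lower in males, with 1440 at an unadjusted p under 0.05 and 164 called by DESeq2. Both diets shared the same fit and its number range terms, so the control and high-fat estimates are not independent. The count of control calls was 17 without high-fat female 1 and otherwise at most 2 with 1 library left out. Neither gene was called without the number range term. Every control male was above every control female at 1471 genes (8.22%) and below at 1307 (7.31%). The genes called higher on the high-fat diet had a median control log2 fold change of 0.14 against 1.65, and those called lower -0.05 against -0.82. Lists differed in this. The medians on the control diet were -0.11 for beta cell identity, 0.11 for disallowed genes and -0.08 for stellate cell markers, near the all-gene median of 0. They were 1.15 for macrophage, 1.32 for interferon, 1.36 for class II and 2.26 for lymphocyte genes.

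Gene by gene, Ucn3 was at 285, 305 and 161 CPM in control males and 272, 239, 276 and 326 CPM in control females, with a control log2 fold change of -0.11 ± 0.44 (adjusted p = 0.966). Isg15 was at 2.37, 2.22 and 3.88 CPM against 1.02, 0.801, 0.788 and 1.22 CPM and 1.60 ± 0.49 (adjusted p = 0.421). Csf1r was at 10.1, 18.1 and 24.6 CPM against 8.5, 8.75, 8.55 and 7.84 CPM and 0.76 ± 0.38 (adjusted p = 0.643). None of the 3 was called, and control males and females overlapped in Ucn3 only.

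Whether the sex difference itself differed between diets was tested as an interaction, which called the same 2 genes (0.0112%), 2103 at an unadjusted p under 0.05 and 468 with DESeq2. In both the sign turned, from lower in control males to higher in high-fat males. Slc5a7, the choline transporter, had 1.48, 2.06 and 1.73 CPM in high-fat males and 0.307, 0.336, 1.48 and 2.2 CPM in high-fat females, and 0.131, 1.78 and 1.79 CPM in control males and 3.51, 2.12, 1.89 and 3.4 CPM in control females. Its log2 fold change was 2.66 ± 0.42 (adjusted p = 0.00604) on the high-fat and -3.69 ± 0.46 (adjusted p = 0.0146) on the control diet, an interaction of 6.35 ± 0.76 (adjusted p = 0.0199). Cplx1, a complexin of vesicle fusion, had 1.21, 1.03 and 1.23 CPM against 0.284, 0.272, 1.6 and 1.2 CPM on the high-fat and 0.142, 1.05 and 1.42 CPM against 2.12, 1.28, 1.84 and 2.07 CPM on the control diet. The values were 2.19 ± 0.36 (adjusted p = 0.00617) and -3.25 ± 0.40 (adjusted p = 0.0146), with an interaction of 5.43 ± 0.65 (adjusted p = 0.0199). In both, the high-fat sexes overlapped: females 1 and 2, of the first number range, were low, and females 3 and 4, of the third, were level with the males. Neither interaction was called without the number range term, nor without high-fat male 1, high-fat male 2, high-fat female 2, high-fat female 4, control male 1, control male 2, control female 1 or control female 4, and 1 of them was without high-fat female 3 or control female 3. In the fit of 45 libraries both interactions were called, but the high-fat difference was not, at 1.19 (adjusted p = 0.107) for Slc5a7 and 0.98 (adjusted p = 0.152) for Cplx1. Slc5a7 was picked after its values were seen. None of the genes named for beta cell identity passed the interaction test, among them Ucn3 at -1.62 ± 0.73 (adjusted p = 0.406) and Slc2a2 at -1.49 ± 0.69 (adjusted p = 0.421), so that the diets were not shown to differ in them. Leaving out 1 library gave 56 interaction calls (without high-fat female 1), 16 (control male 3), 14 (high-fat male 3) or at most 2.

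The strains did differ in the sex difference. Male minus female on the high-fat diet differed between NZO/HlLtJ and C57BL/6J at 4128 of 19613 autosomal genes (21.0%), 2032 with a higher and 2096 with a lower value in NZO/HlLtJ, in a fit of all 45 libraries. Against CAST/EiJ it differed at 4254 genes (21.7%), 2140 higher and 2114 lower. These contrasts share the NZO/HlLtJ libraries with each other and with the comparison above. Within C57BL/6J the high-fat sexes differed at 11 autosomal genes (0.0561%), 2 of them (0.0102%) higher in males, and within CAST/EiJ at 76 (0.387%). Without high-fat male 3 the counts were 2172 against C57BL/6J and 1767 against CAST/EiJ.

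Ucn3 averaged 340 ± 41.3 CPM (SD, n = 4) in C57BL/6J high-fat males and 328 ± 72.6 CPM (n = 4) in females, and 457 ± 60.5 against 488 ± 89.1 CPM in CAST/EiJ. The sex difference in NZO/HlLtJ was lower by a log2 value of -2.08 ± 0.31 (adjusted p = 4.4e-05) than in C57BL/6J and -1.82 ± 0.30 (adjusted p = 0.000151) than in CAST/EiJ. For Slc2a2 the differences between strains were -1.82 ± 0.33 (adjusted p = 0.000295) and -1.66 ± 0.32 (adjusted p = 0.000621), and for Trpm5 -2.17 ± 0.30 (adjusted p = 1.88e-05) and -2.12 ± 0.29 (adjusted p = 1.82e-05). For Ins2 the differences between strains were -1.13 ± 0.35 (adjusted p = 0.0186) and -1.09 ± 0.34 (adjusted p = 0.0201). Within NZO/HlLtJ, edgeR did not call Ins2 in the fit of that strain's libraries alone, while DESeq2 did (adjusted p = 0.0411). In the fit used for these strain contrasts, edgeR also called Ins2 within NZO/HlLtJ, at -0.99 (adjusted p = 0.00295).

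Upward, Csf1r averaged 14.2 ± 2.87 against 12.8 ± 2.6 CPM in C57BL/6J and 14.6 ± 2.58 against 17 ± 3.33 CPM in CAST/EiJ. Its differences between strains were 1.77 ± 0.41 (adjusted p = 0.00231) and 2.15 ± 0.40 (adjusted p = 0.000448). Isg15 had 2.43 ± 0.50 (adjusted p = 0.000984) and 2.24 ± 0.51 (adjusted p = 0.00239), and Col1a1 2.06 ± 0.65 (adjusted p = 0.0216) and 1.91 ± 0.64 (adjusted p = 0.0291). Over the acinar genes the median difference between strains was 0.23 against C57BL/6J and -0.34 against CAST/EiJ, and the median high-fat sex difference in the same fit of 45 libraries was 0.78 in C57BL/6J, 1.28 in CAST/EiJ and 1.00 in NZO/HlLtJ. For beta cell identity the medians in that fit were 0.08, -0.10 and -1.16, and for macrophage genes 0.04, -0.37 and 2.03, in the same order of strains. Lymphocyte list medians were positive in every strain there, at 1.83, 4.14 and 2.39, but few of these genes were called. In NZO/HlLtJ 7 of the 21 were called higher in that fit, beside 3355 of 19613 genes. Over all autosomal genes, 2 were called higher in males within C57BL/6J (0.0102%) and 5 within CAST/EiJ (0.0255%).

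Of the genes named here, C7 alone was called between the sexes in each strain on the high-fat diet, with log2 fold changes of 4.46 in C57BL/6J, 3.16 in CAST/EiJ and 5.52 in NZO/HlLtJ in the fit of 45 libraries. It averaged 10.9 ± 6.08 CPM in C57BL/6J high-fat males against 0.484 ± 0.148 CPM in females, and 0.936 ± 0.546 against 0.107 ± 0.0298 CPM in CAST/EiJ.

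**Figure D5:**
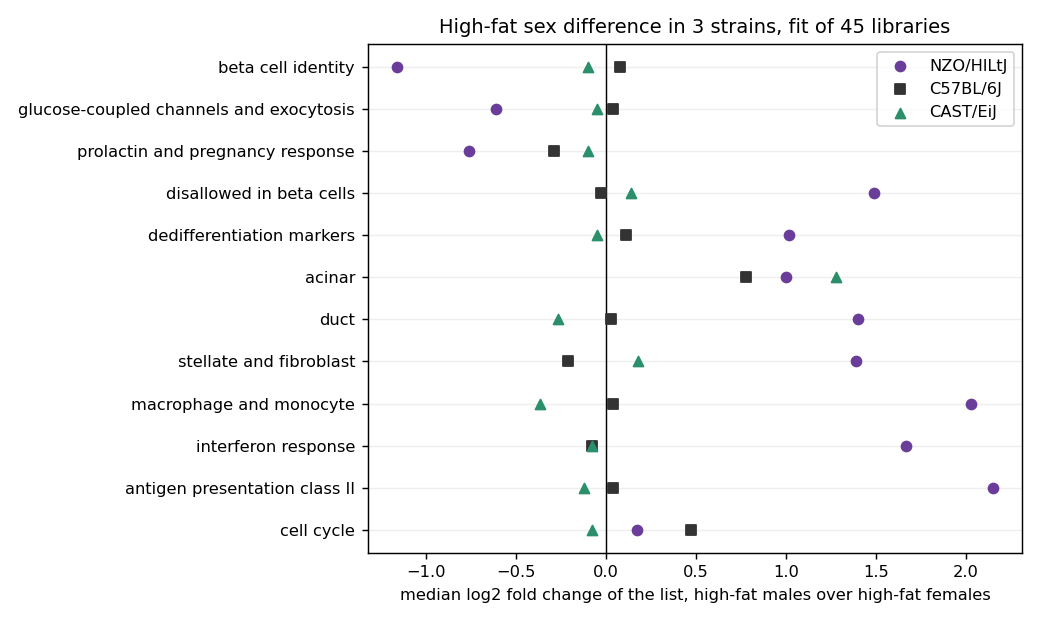
Median log2 fold change of high-fat males over high-fat females in 12 gene lists, for NZO/HlLtJ (circles), C57BL/6J (squares) and CAST/EiJ (triangles), all from the fit of 45 libraries. In NZO/HlLtJ the lists spread from -1.16 for beta cell identity to 2.15 for class II antigen presentation, and the acinar median of 1.00 lies between those of C57BL/6J and CAST/EiJ.

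In a fit of the 7 high-fat libraries with the number range as a term, the sex difference rested on the first number range. That range holds high-fat male 1 and females 1 and 2, while the spread came from all 7 libraries. No gene was called by edgeR in that fit, 2244 had an unadjusted p under 0.05, and DESeq2 was not run. List medians in that fit were -0.76 for beta cell identity, 1.38 for disallowed genes, 1.67 for macrophage genes and 1.34 for interferon genes. With the acinar score of each library as a further term in the 14-library fit, 2 genes were called, 2413 had an unadjusted p under 0.05, and of the 120 named genes 1, C7, stayed called. In the fit of all 45 libraries 7023 genes were called without that term, 3355 higher and 3668 lower, and 6593 with it, 3154 higher and 3439 lower, among them 115 of the 120 named genes. With the term, the list median of beta cell identity was -0.71 in the 14-library fit, with 0 called, and -1.09 in the 45-library fit, with 25 called lower. For disallowed genes it was 1.09 with 0 called and 1.29 with 22 called higher, and for acinar genes -0.35 and -0.24. None of the tested members of the 36 lists was called with the term in the 14-library fit. Without the number range term the called members became 28 of 30 interferon genes, 15 lower of the channel and exocytosis list, 8 of the granule list, 8 of the unfolded protein response, 9 of the tricarboxylic acid cycle and 11 of the endothelial list.

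Of the 120 named genes called, 68 kept their call in all 14 fits with 1 library left out and 52 lost it at least once, most often without high-fat male 1 (40 genes) or control male 1 (34), and 13 lost it without high-fat male 3.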

How the data were processed

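The authors deposited expected counts (22904 genes, 45 samples, 80.6% of values whole to within 1e-06). Per the submitters' processing notes, DESeq2 was used and the build was GRCm38. Aligner, counting tool and strand setting: not given in the sources used here. Reads of a gene and an overlapping or antisense neighbour may therefore be mixed. Gene positions were deposited by the authors with the table. The labels give no replicate numbers, so samples were numbered within groups in accession order.

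Counts were rounded and tested in edgeR 4.0.16 (R 4.3.3): filterByExpr with a minimum count of 10, trimmed mean of M values, and the quasi-likelihood test with Benjamini-Hochberg adjustment over all genes of a fit at 0.05, on the 14 NZO/HlLtJ samples in 4 groups with the number range as a term (8 residual degrees of freedom). Strain contrasts used all 45 samples in 12 groups, with the same term. Only autosomal genes are reported. The standard error is the log2 fold change divided by the square root of its F value. On simulated data of 18517 genes made for the high-fat contrast, edgeR recovered 30% of genes changed by 1 and 68% of genes changed by 2 on the log2 scale, and called 0.027% of unchanged genes. The simulated libraries held no effect of number range, diet or cell content, so these rates need not hold for the real libraries. CPM values used factors over all 45 libraries.

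The members and lists (36 lists, 717 genes, 681 of them autosomal and in the table) were chosen with earlier results of these data known. Named genes were the 10 protein-coding genes of largest fold in each direction among those called, with mean log2 CPM 1 or more and no overlap between the sexes (genes named Gm with digits or ending in Rik were not named), up to 4 members of each list with the smallest p, a set always given, and the 5 of largest fold in each direction in the interaction and strain contrasts. In 10 of the 188 named genes at least 50% of 31-base words of the transcripts are shared with another gene. Some genes chosen by this rule are not reported here. Promoters are from RefSeq, GRCm38.p6. Alternatives were DESeq2 1.42.0, other scaling, no filter, acinar terms, other sets of samples and each library left out. The acinar score used a prior count of 0.5.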

Additional observations from a re-analysis of the deposited data

Results flagged for a closer look

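Among the high-fat females, 8 of 170 values checked (named genes and shares of counts) had 1 library far from the other 3 (Dixon's test at 95%, which chance meets in about 1 of 20 groups). Female 2 was high in Angptl7 (147 CPM, others 95.8 to 103), Ero1lb (5610 CPM, others 3910 to 4050), Wfs1 (252 CPM, others 184 to 189) and Mki67 (60.7 CPM, others 30.2 to 33.7). Female 1 was high in Kcnj12 (5.69 CPM, others 1.2 to 1.84), Tgfb1 (13.3 CPM, others 11.9) and Ncoa1 (73.6 CPM, others 52.8 to 56). Female 3 was high in Cidea (0.22 CPM, others 0.112 to 0.114).

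The sex difference differed between diets by test for Slc5a7 (interaction on the log2 scale 6.35 ± 0.76 SE, adjusted p = 0.0199) and Cplx1 (5.43 ± 0.65, adjusted p = 0.0199), with edgeR, and for neither without the number range term. With that term the test rested mainly on the first number range, with 1 male on each diet. Slc5a7 was at 0.307 and 0.336 CPM in high-fat females 1 and 2, of the first number range, and at 1.48 and 2.2 CPM in females 3 and 4, of the third, beside 1.48 to 2.06 CPM in the males. Cplx1 was at 0.284 and 0.272 CPM in females 1 and 2 and at 1.6 and 1.2 CPM in females 3 and 4, beside 1.03 to 1.23 CPM in the males.

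The high-fat sex difference differed between strains at 4128 genes against C57BL/6J and 4254 against CAST/EiJ. Against C57BL/6J the named genes of largest fold (log2 difference ± SE, edgeR) were Pga5 (9.81 ± 2.14), Slc5a10 (4.25 ± 1.30), Bglap3 (4.07 ± 1.43), Ifi27l2a (3.83 ± 0.73) and Plac8 (3.64 ± 0.78) upward. Downward they were Tdrd6 (-3.40 ± 0.71), Cyp4f39 (-3.16 ± 0.66), Kcnf1 (-3.10 ± 0.68), T2 (-3.09 ± 0.69) and Kcnh5 (-3.03 ± 0.45). Adjusted p ran from 4.03e-05 (Kcnh5) to 0.0428 (Bglap3). Pga5 was barely detected in C57BL/6J, at an average of 0.00626 CPM in high-fat males and 0.0179 CPM in high-fat females. Its log2 sex difference in that strain, -1.63 ± 1.62, is part of the 9.81 and is poorly determined.

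Against CAST/EiJ they were Tmem254b (7.89 ± 1.22), Fam213b (7.51 ± 1.34), Rpl9-ps6 (6.47 ± 0.87), Mmp7 (5.79 ± 1.69) and Slc5a10 (5.03 ± 1.42) upward. Downward they were Cyp4f39 (-3.28 ± 0.66), Kcnf1 (-2.78 ± 0.67), Otoa (-2.60 ± 0.57), T2 (-2.44 ± 0.68) and Angptl7 (-2.28 ± 0.45). Adjusted p ran from 1.39e-05 (Rpl9-ps6) to 0.0138 (Mmp7). Tmem254b and Rpl9-ps6 are uncertain, since 50% or more of the 31-base words in their transcripts occur in another gene too.

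Xist, on the X chromosome and outside the autosomal comparison, was at 15.3 CPM in high-fat male 3, above the control males' 0.0443 to 0.929 CPM.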

How the results depend on the processing

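No paired analysis was possible because the labels give no replicate numbers. The count of 2559 called genes became 4827 (2912 higher, 1915 lower) without the number range term. It was 7023 on all 45 samples and 2 with the acinar score as a term. In the 7 high-fat libraries with the range term, where the estimate rested on the first number range, it was 0. In settings chosen after seeing the data, it was 7 with the acinar score and no range term and 6593 with the acinar score in all 45 samples. Leaving out each library gave 1310 to 2993. The cause was not tested. The 2 control-diet calls became 38 (no range term), 164 (DESeq2), 659 (45 samples), 5 (acinar score, no range term) and 0 to 17 (each library left out), and the 2 interaction calls 46, 468, 2703, 140 and 0 to 56. The strain counts ran from 2172 to 4468 against C57BL/6J and from 1767 to 4521 against CAST/EiJ with 1 high-fat library left out, both lowest without high-fat male 3.

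Of the 120 called named genes none changed sign in any setting, and DESeq2, no filter and the 45-sample fit kept 120, 120 and 114 calls. Genes that were not called did change sign. Aldh1a3 was -0.35 with no range term, -0.29 in 45 samples, -0.31 in the 7 high-fat samples, -0.03 in the first range, and -0.25 and -0.22 with the acinar score (no range term, 45 samples). Mki67 was 0.11 with no range term, 0.03 in 45 samples, 0.15 in the 7 samples and 0.11 with the acinar score and no range term. With the acinar score, Cpa1 was -0.36 (14 samples), -0.24 (no range term) and -0.25 (45 samples), Cel -0.38, -0.36 and -0.40, Esr1 -0.11 (no range term) and Iapp 0.08 (14 samples). Ddit3 was -0.08 in 45 samples and -0.01 with the acinar score there, and in the first range Sst was 0.03 and Atf4 0.12. With each library left out, Iapp ran from -0.46 to 0.11, Aldh1a3 from -0.20 to 0.60, Mki67 from -0.38 to 0.25, Hspa5 from -0.65 to 0.04, Ddit3 from -0.50 to 0.37 and Atf4 from -0.23 to 0.03. With 3 males the exact test of shares cannot reach 0.05.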
